A study of Mus musculus with 13 samples.

Results

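The 10 genes described here equip striated muscle fibers for energy use: *Pygm*, *Eno3*, *Pgam2* and *Fbp2* of glycogen and sugar metabolism, the creatine kinases *Ckm* and *Ckmt2*, the fatty acid and oxygen carriers *Fabp3* and *Mb*, and the respiratory chain subunits *Cox6a2* and *Cox7a1*. They were chosen by name as muscle-type isoforms, with earlier results of these data known, and the 10 were read from 49315 genes counted. All 10 had enough counts to be tested, among 20168 genes. Total RNA from full-thickness back skin was sequenced from 3 WT mice and 3 DKO littermates at postnatal day 4 (P4), with 1 library per mouse. DKO mice were K14Cre+Kctd1fl/flKctd15fl/fl, in which Cre under the keratin 14 promoter deletes a floxed exon of *Kctd1* and of *Kctd15* in keratinocytes. The genotype of the WT mice is given no further than WT. The series also holds 7 libraries of epidermis from 3-week-old mice, which contain a count of 0 for every gene and were not used here.

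Muscle fibers draw ATP from phosphocreatine, from glycogen by glycolysis and from the oxidation of fatty acids and pyruvate in mitochondria, and for many of these steps they use an isoform of their own in place of the one that most cells carry. In mouse skin, striated fibers form the panniculus carnosus, a thin muscle sheet beneath the dermis and its fat that belongs to a full-thickness sample. Several of the genes are also active in heart and in brown fat, *Fabp3* and *Cox7a1* among them.

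The promoters of *Ckm*, *Pgam2* and *Pygm* are printed because these genes stand for creatine kinase, glycolysis and glycogen use, and because the letters bound by the muscle regulators of the MyoD and MEF2 families occur in them. RefSeq windows of GRCm38.p6, from 250 bases before to 50 bases after each annotated start, were found for 9 of the 10 genes, in 11 windows, since *Mb* has several starts. The 250 bases before the start are shown 5′ to 3′ on the strand of the gene, at chr7:19410844-19411093 on the plus strand for *Ckm*, chr11:5803797-5804046 on the minus strand for *Pgam2* and chr19:6384158-6384407 on the plus strand for *Pygm*. Capitals mark the E-box CAGCTG and, in *Pgam2* alone, a MEF2 match.
Ckm: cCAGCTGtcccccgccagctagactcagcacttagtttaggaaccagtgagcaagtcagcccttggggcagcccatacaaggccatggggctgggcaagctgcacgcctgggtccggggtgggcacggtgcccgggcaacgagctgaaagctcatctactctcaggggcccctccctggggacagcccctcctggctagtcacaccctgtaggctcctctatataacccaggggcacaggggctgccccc
Pgam2: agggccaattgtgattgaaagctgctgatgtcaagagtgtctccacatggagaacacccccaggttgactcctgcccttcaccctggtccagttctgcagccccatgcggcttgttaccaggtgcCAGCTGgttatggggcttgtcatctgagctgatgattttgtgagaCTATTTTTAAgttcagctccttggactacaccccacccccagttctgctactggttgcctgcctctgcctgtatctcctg
Pygm: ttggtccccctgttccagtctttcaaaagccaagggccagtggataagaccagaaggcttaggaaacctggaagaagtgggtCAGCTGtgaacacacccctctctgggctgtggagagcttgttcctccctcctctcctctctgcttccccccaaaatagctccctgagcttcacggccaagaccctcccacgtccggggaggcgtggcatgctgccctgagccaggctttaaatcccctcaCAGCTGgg
The E-box begins 249 bases before the start in *Ckm* and 125 before it in *Pgam2*, where the MEF2 match begins 80 bases before it. *Pygm* has E-boxes 168 and 8 bases before its start. The starts are those of RefSeq, while the gene coordinates given below are those used in counting. By the latter, the printed bases of *Ckm* and the last ones of *Pygm* lie inside the gene. Counted on both strands over the full windows, CAGCTG was found in 7 of the 9 genes (*Ckm*, *Ckmt2*, *Eno3*, *Fbp2*, *Mb*, *Pgam2* and *Pygm*) and in 8 of their 11 windows, against 16.3% of the 32851 windows of the table. The broader E-box CANNTG, which includes CAGCTG, was in all 11 windows and in 72.3% of the table. The MCAT letters CATTCC stood in *Eno3* and *Pgam2* and in 14.7% of the table, and the MEF2 motif in 3.19% of it. No window of the 9 genes held the serum response element CArG (1.63% of the table), the estrogen-related receptor letters AAGGTCA (4.72%) or TATAAA (13.6%). A match describes letters in a window and is not a binding site, and a window without a match says nothing of the factor.

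The P4 libraries held 11263863 to 17643043 counts on genes, and a count of 3, taken as the floor, equals 0.17 to 0.266 CPM (counts relative to library size), which covers counting error only. Values are given as normalized counts, that is, counts scaled to a common library size by edgeR's TMM method. The test was the quasi-likelihood F test of edgeR, with p-values adjusted over all 20168 genes by the Benjamini-Hochberg method. Called genes had an adjusted p-value under 0.05 together with an absolute log2 fold change over 1. The targeted genes were read first. WT and DKO skin held 432 ± 19.0 and 742 ± 240 normalized counts of *Kctd1*, and 745 ± 15.5 and 1321 ± 189 of *Kctd15* (SD, n = 3 each). Counts over a whole gene do not show the loss of an exon from keratinocytes alone, so the genotypes rest on the labels. The labels name separate mice but not their litters or sampling days, and p-values measure the spread between these 6 mice. All values are relative to the RNA of the whole sample. A different number of muscle fibers, a different amount of RNA per fiber and a different amount of the other tissue cannot be told apart. The paper reports that P4 DKO skin is thinner, and the part of this in the values was not tested.

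None of the 10 genes was called, against 0.0397% of all genes tested that were called as higher in DKO (0.0694% in either direction). Adjusted p-values lay between 0.204 and 0.899. All 10 nonetheless had the higher mean in DKO, where 52.9% of all genes did, and 8 of the 10 had an unadjusted p-value under 0.05 with the higher mean in DKO, which 4.96% of all genes had. For 9 of the 10, each DKO mouse was above each WT mouse, which held for 7.24% of all genes. The 10 genes and the lists read below were chosen with earlier results of these data known. Such counts beside the share of all genes are therefore no independent support for a direction. The median log2 fold change of the 10 was 1.17, or 2.25-fold, beside 0.02 for all genes tested. By DESeq2, the tool named in the study's methods, 6 of the 10 passed the same thresholds as higher in DKO, namely *Pygm*, *Eno3*, *Fbp2*, *Ckm*, *Fabp3* and *Cox6a2*, against 0.466% of the genes with an adjusted p-value in DESeq2. In edgeR without a filter on low counts, 7 were called, the same 6 and *Ckmt2*, against 0.395% of all genes. Without DKO replicate 1, DESeq2 called 0 of the 10, against 0.152% of its genes. *Ckm* and *Pygm* kept adjusted p-values of 0.00169 and 0.00583 there and missed the fold threshold, at log2 fold changes of 0.85 and 0.79, and the other 8 had adjusted p-values of 0.0884 or more.

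**Figure D1:**
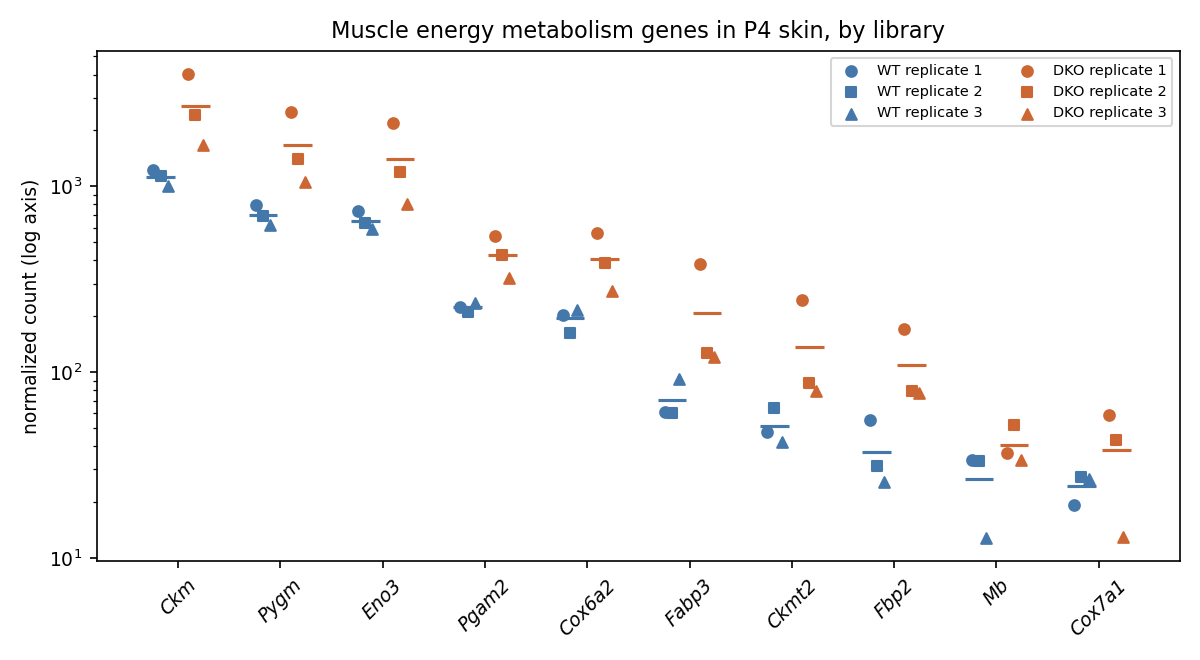
Normalized counts (log axis) of the 10 genes in each of the 3 WT libraries (blue) and the 3 DKO libraries (orange) of P4 skin, with a marker shape for each replicate number and a horizontal line at each group mean. DKO replicate 1 is the highest of the 6 libraries for every gene but *Mb*, DKO replicate 3 is the lowest DKO library throughout, and the groups overlap for *Cox7a1* only.

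*Pygm* (ENSMUSG00000032648, GRCm38 chromosome 19, 6384399 to 6398459) encodes muscle glycogen phosphorylase, which releases glucose 1-phosphate from glycogen. The 3 WT libraries, in the order of their replicate numbers, held 797, 693 and 622 normalized counts, and the 3 DKO libraries held 2528, 1411 and 1055 in the same order, which is kept for every gene. Every DKO library was above every WT library, but the DKO libraries were much further apart than the WT libraries, with the first far above the others. The log2 fold change of 1.24 had a standard error (SE) of 0.280 and a 95% interval of 0.61 to 1.87 (adjusted p = 0.235, edgeR).

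*Eno3* (ENSMUSG00000060600, chromosome 11, 70657202 to 70662513), the muscle enolase of lower glycolysis, had 733, 633 and 589 normalized counts in WT and 2197, 1188 and 807 in DKO. The same DKO library led, and the lowest DKO library was close to the highest WT library. The difference was 1.10 on the log2 scale (SE 0.306, 95% interval 0.41 to 1.78, adjusted p = 0.342 by edgeR). *Pgam2* (ENSMUSG00000020475, chromosome 11, 5801640 to 5803733), the muscle phosphoglycerate mutase of the step before enolase, had 224, 212 and 235 in WT and 539, 428 and 322 in DKO. Its WT libraries lay within a narrow band, and all DKO libraries stood above it. With 0.94 (SE 0.196, 95% interval 0.50 to 1.38), it had the smallest adjusted p-value of the 10, 0.204 by edgeR, and its log2 fold change stayed under the threshold of 1 in DESeq2 as well, at 0.92 with an adjusted p of 0.00709.

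*Fbp2* (ENSMUSG00000021456, chromosome 13, 62836884 to 62858400), the muscle fructose-1,6-bisphosphatase that works against glycolysis and toward glycogen, was counted at 55.0, 31.4 and 25.7 in WT and at 171, 79.4 and 77.6 in DKO. DKO replicates 2 and 3 were nearly level, and the gap to the highest WT library was small beside the lead of DKO replicate 1. It had the largest fitted difference of the 10, with a log2 fold change of 1.55 and a wide 95% interval of 0.66 to 2.44 (SE 0.397, adjusted p = 0.297 in edgeR).

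*Ckm* (ENSMUSG00000030399, chromosome 7, 19404776 to 19422841), the cytosolic muscle creatine kinase that recharges ATP from phosphocreatine, had the most counts of the 10, with 1225, 1135 and 1002 normalized counts in WT and 4028, 2431 and 1662 in DKO. The groups were well apart and the DKO libraries kept the order seen for *Pygm* and *Eno3*. The log2 fold change was 1.27 (SE 0.272, 95% interval 0.66 to 1.88), with an adjusted p of 0.205 in edgeR and 0.000973 in DESeq2. *Ckmt2* (ENSMUSG00000021622, chromosome 13, 91853387 to 91876885), the sarcomeric mitochondrial creatine kinase that forms phosphocreatine, was at 47.9, 64.5 and 41.9 in WT and at 246, 87.1 and 79.6 in DKO. Its DKO replicate 1 stood at 2.95 times the mean of the other DKO libraries, which lay just above the WT group. The log2 fold change was 1.40 (SE 0.429, 95% interval 0.44 to 2.36, adjusted p = 0.400 in edgeR).

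*Fabp3* (ENSMUSG00000028773, chromosome 4, 130308595 to 130315463), the heart and muscle fatty acid carrier, had 61.2, 60.3 and 92.4 normalized counts in WT and 381, 127 and 120 in DKO. Here DKO replicate 1 was 3.08 times the mean of the other DKO libraries, more than for any other of the 10. Its log2 fold change of 1.54 had an SE of 0.436 and a 95% interval of 0.56 to 2.52 (adjusted p = 0.342, edgeR). *Mb* (ENSMUSG00000018893, chromosome 15, 77015489 to 77050670), which encodes myoglobin, the oxygen store of oxidative fibers, was scarce, with 33.6, 33.1 and 12.8 in WT and 36.8, 51.8 and 33.8 in DKO. DKO replicate 1 did not lead here, and the lowest DKO library and the highest WT library were nearly equal, so that the separation of the groups is smaller than their spread. Its log2 fold change was 0.63 with a 95% interval of -0.27 to 1.52 (SE 0.398, adjusted p = 0.843 in edgeR).

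*Cox6a2* (ENSMUSG00000030785, chromosome 7, 128205435 to 128206387), the heart and muscle form of a cytochrome c oxidase subunit, was at 204, 163 and 217 normalized counts in WT and at 561, 385 and 273 in DKO. All DKO libraries exceeded all WT libraries, in the DKO order of *Ckm*. The log2 fold change was 1.06 (SE 0.253, 95% interval 0.49 to 1.62, adjusted p = 0.263 by edgeR). *Cox7a1* (ENSMUSG00000074218, chromosome 7, 30184144 to 30186078), the heart and muscle form of another subunit of that enzyme, had 19.4, 27.2 and 26.5 in WT and 59.2, 43.0 and 12.9 in DKO. One DKO library was below the whole WT group and the others were above it, so this gene alone overlapped between the groups. The fitted difference of 0.63 had a 95% interval of -0.46 to 1.71 (SE 0.486, adjusted p = 0.899 in edgeR).

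Levels between genes were compared as CPM per kilobase of annotated exon length. In WT skin, *Ckm* (25.3 ± 2.53) and *Eno3* (24.6 ± 2.78, SD, n = 3) came first and changed places between libraries. *Cox6a2* (18.8 ± 2.74) and *Pgam2* (17.5 ± 0.904) followed, again without a fixed order, and *Pygm* was next at 14.4 ± 1.80. *Fabp3* at 5.69 ± 1.46 and *Cox7a1* at 2.99 ± 0.532 were each above the gene that followed in every WT library, while *Ckmt2* (2.28 ± 0.518), *Fbp2* (1.85 ± 0.772) and *Mb* (1.39 ± 0.623) were not told apart as neighbors. In DKO skin *Ckm* (61.1 ± 27.2), *Eno3* (52.8 ± 27.1) and *Cox6a2* (39.3 ± 14.1) led in this order in every library. *Pygm* (34.0 ± 15.7) and *Pgam2* (33.6 ± 8.51) changed places between libraries, *Fabp3* was at 16.7 ± 11.9, and the 4 lowest genes were the same as in WT skin.

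DKO replicate 1 was the highest of the 6 libraries for 9 of the 10 genes (23.8% of all genes), and DKO replicate 3 was the lowest DKO library for all 10. For the latter, the share of all genes was not counted. Without DKO replicate 1, the median log2 fold change fell from 1.17 to 0.73, beside 0.00 for all genes. The single values without it ranged from 0.16 for *Cox7a1* to 1.07 for *Fbp2*, with 0.85 for *Ckm* (adjusted p = 0.0760, edgeR) and 0.79 for *Pygm* (adjusted p = 0.111). The number of genes in which each DKO mouse was above each WT mouse remained 9 of 10, against 11.9% of all genes, and edgeR again called 0 of the 10, against 0.0967% of all genes. Sample titles carry the number 40972 for WT replicate 3 and DKO replicate 1 and 47347 for the other 4 libraries, and do not say what it marks. Within 47347, 2 mice against 2, the differences of mean log2 normalized counts lay between 0.05 for *Cox7a1* and 1.02 for *Fabp3*, and edgeR called 0 of the 10 (0.0296% of all genes). Between the pair under 40972, which has no replicate, the differences of log2 normalized counts lay between 1.14 for *Cox7a1* and 2.71 for *Fbp2*, and were the larger for every gene.

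**Figure D2:**
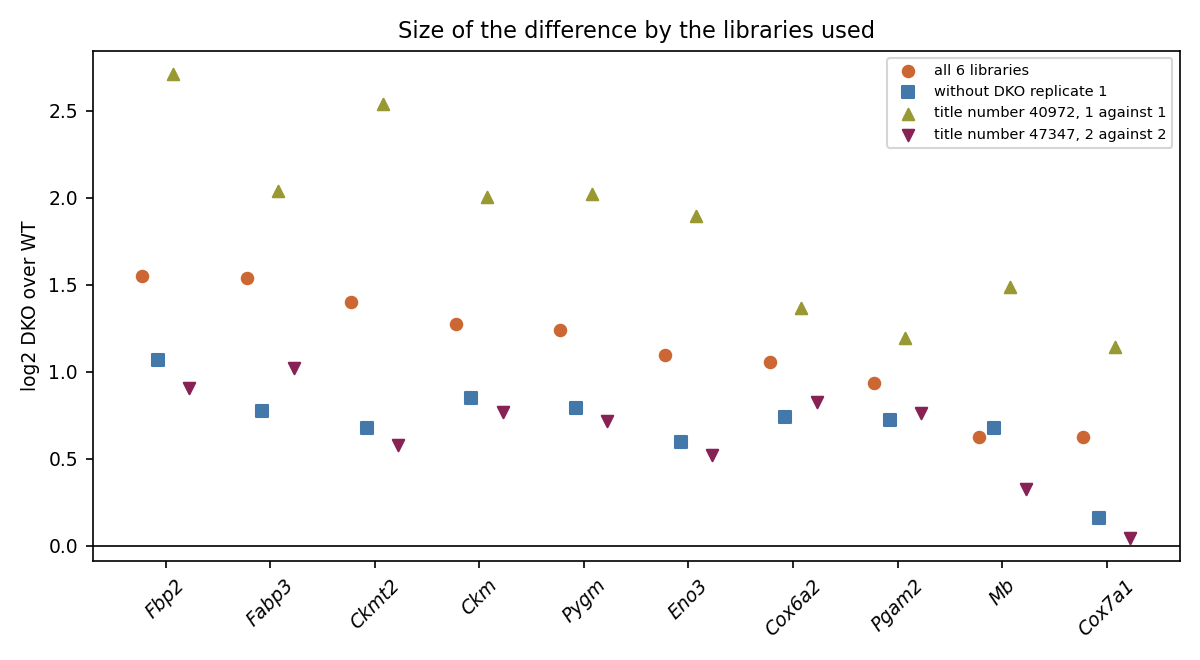
Log2 ratio of DKO over WT (y axis) for the 10 genes (x axis), fitted on all 6 libraries (circles) and without DKO replicate 1 (squares). Triangles give the difference of mean log2 normalized counts within title number 40972 (upward, 1 library against 1) and 47347 (downward, 2 against 2). Every point is above 0, and the points for 40972 are the highest for each gene.

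For each step, the isoform carried by most cells or by other cell types was set beside the muscle isoform. Among these 12 counterparts, 0 were called by edgeR or by DESeq2, 2 were lower in DKO at an unadjusted p under 0.05 in edgeR (2.54% of all genes), 6 had the higher mean in DKO and 6 in WT, and the median log2 fold change was -0.01. Fructose-1,6-bisphosphatase 1, *Fbp1*, had the lowest value, -0.56 (SE 0.208, adjusted p = 0.530 in edgeR), with 929 ± 52.4 normalized counts in WT and 630 ± 184 in DKO (SD, n = 3). *Fabp5*, the epidermal fatty acid carrier, followed at -0.47 (SE 0.120, adjusted p = 0.298 in edgeR), with 3368 ± 284 and 2435 ± 123. These 2 were lower in each DKO mouse than in each WT mouse, as was liver glycogen phosphorylase *Pygl* at -0.19. Of all genes, 13.2% had groups apart in either direction, which includes 7.24% with DKO higher. The adipocyte carrier *Fabp4* was at -0.03 with overlapping groups. Brain creatine kinase *Ckb* (-0.14), brain glycogen phosphorylase *Pygb* (-0.08), *Pgam1* (0.04) and *Eno1* (0.08) lay near 0, as did the cytochrome c oxidase subunits *Cox7a2* (0.02) and *Cox6a1* (0.15). The highest were the ubiquitous mitochondrial creatine kinase *Ckmt1* at 0.29 and the globin *Cygb* at 0.43, neither with groups apart.

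**Figure D3:**
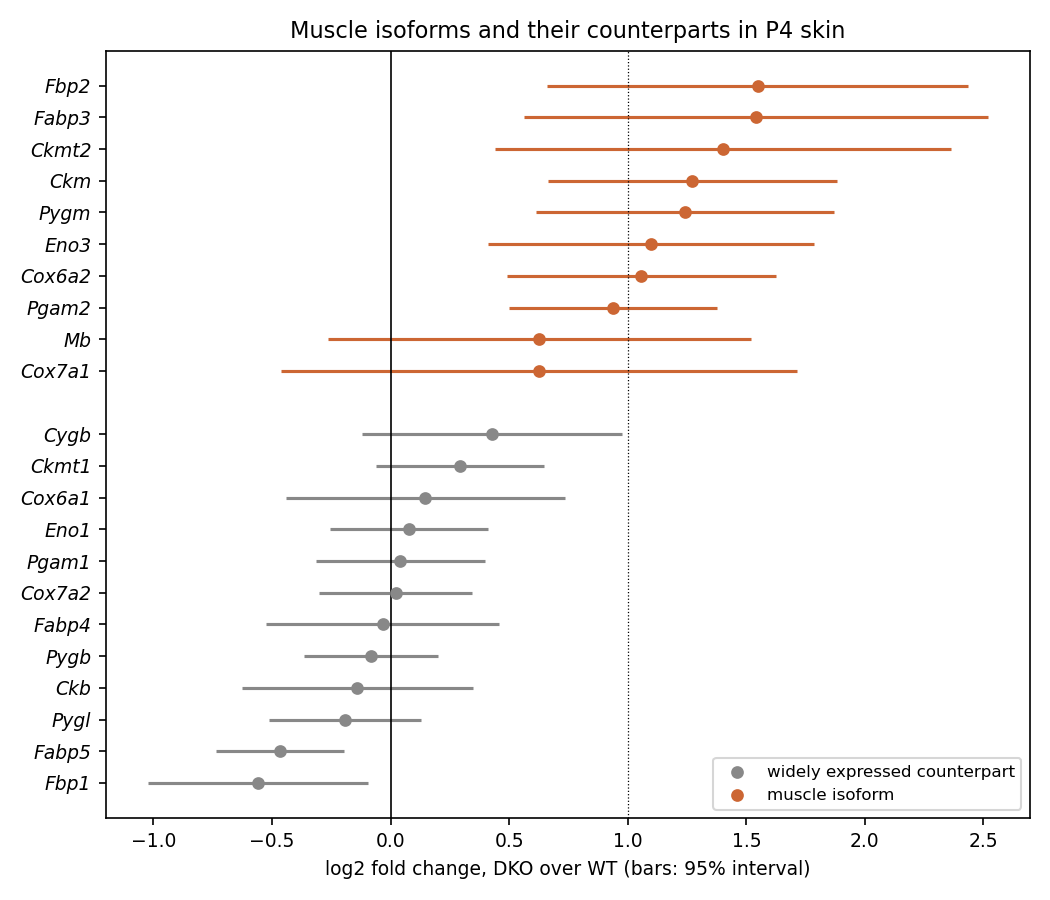
Log2 fold change of DKO over WT from edgeR (points) with 95% intervals (bars, n = 3 mice per group) for the 10 muscle isoforms (orange) and their 12 counterparts (gray), with a dotted line at the threshold of 1. The muscle isoforms lie between 0.63 and 1.55 and the counterparts between -0.56 and 0.43.

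A ratio of isoform to counterpart within a library does not depend on how libraries are scaled. It was higher in each DKO mouse than in each WT mouse for 9 of 12 pairs, which gives a p of 0.1 in a two-sided exact permutation test, the smallest that 3 against 3 allows. *Pygm* and *Fabp3* each enter in 2 pairs, and the isoform counts are those already compared above. The pairs are therefore not independent, and no share of all genes is available for them. The log2 ratio of *Ckm* to *Ckb* was 1.69, 1.32 and 1.27 in WT and 3.35, 2.33 and 2.69 in DKO, a difference of 1.36. For *Pygm* against *Pygb* it went from -0.46, -0.79 and -1.10 in WT to 1.15, 0.24 and -0.07 in DKO, so that the muscle enzyme was the less counted one in all WT libraries and the more counted one in DKO replicates 1 and 2. The largest difference, 2.12 for *Fbp2* against *Fbp1*, combined a higher muscle isoform with a lower counterpart. *Fabp3* differed by 1.40 against *Fabp4* and by 1.83 against *Fabp5*, *Pygm* by 1.34 against *Pygl*, *Cox6a2* by 0.93 against *Cox6a1*, *Eno3* by 0.91 against *Eno1* and *Pgam2* by 0.88 against *Pgam1*. The other pairs overlapped between the groups, at 0.96 for *Ckmt2* to *Ckmt1* (exact p = 0.3), 0.40 for *Cox7a1* to *Cox7a2* (exact p = 0.6) and 0.31 for *Mb* to *Cygb* (exact p = 1). Without DKO replicate 1 the difference was 0.50 for *Cox6a2* to *Cox6a1*, 0.52 for *Eno3* to *Eno1*, 0.32 for *Ckmt2* to *Ckmt1* and -0.09 for *Cox7a1* to *Cox7a2*, and the other pairs moved by less than 1.5 times.

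The share of muscle RNA in each library was read from 26 sarcomere genes, the structural proteins of the contractile apparatus. Together they took 0.736, 0.645 and 0.681% of all counts in WT and 2.25, 0.935 and 1.05% in DKO. Every DKO library was above every WT library, and DKO replicate 1 was again the highest. The leading genes were *Ttn*, which encodes the spring protein titin, with a log2 fold change of 1.05, and skeletal actin *Acta1* with 1.14 (adjusted p = 0.344 and 0.168, edgeR). Of the 24 sarcomere genes with enough counts, 23 had the higher mean in DKO (52.9% of all genes), 18 had every DKO mouse above every WT mouse (7.24% of all genes), 0 were called (0.0397% as higher), and the median was 1.01, or 0.51 without DKO replicate 1. At an unadjusted p under 0.05, 19 were higher in DKO by edgeR (4.96% of all genes), and DESeq2 called 11 of the 26 (0.466%). For the 10 energy genes the medians were 1.17 with all libraries and 0.73 without DKO replicate 1.

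Set against the sarcomere sum of the same library, the 10 genes showed no separation of the groups. Their summed counts were 3.06, 3.16 and 2.82% of the sarcomere sum in WT and 3.23, 4.04 and 2.82% in DKO. The ratio to the sarcomere sum overlapped between the groups for all 10, against 0.0942% of all genes tested with DKO entirely above WT and 65% with DKO entirely below. These shares largely follow from the sarcomere sum itself, which was higher in every DKO library. They are therefore no independent measure for the 10 genes. The DKO-minus-WT difference in log2 ratio was 0.22 for *Ckm*, 0.19 for *Pygm*, 0.02 for *Eno3*, 0.05 for *Cox6a2* and -0.05 for *Pgam2*, with exact permutation p-values of 0.4, 0.4, 0.8, 0.9 and 0.9. It was 0.55 for *Fbp2*, 0.40 for *Fabp3* and 0.27 for *Ckmt2* at the upper end, and -0.25 for *Mb* and -0.55 for *Cox7a1* at the lower end (exact p between 0.2 and 0.6). With 3 mice against 3, a p of 0.2 to 0.9 does not show that the ratios were equal. Without DKO replicate 1 the difference was 0.22 for *Fabp3*, 0.12 for *Ckmt2*, 0.15 for *Cox6a2*, 0.13 for *Pgam2* and 0.18 for *Mb*.

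**Figure D4:**
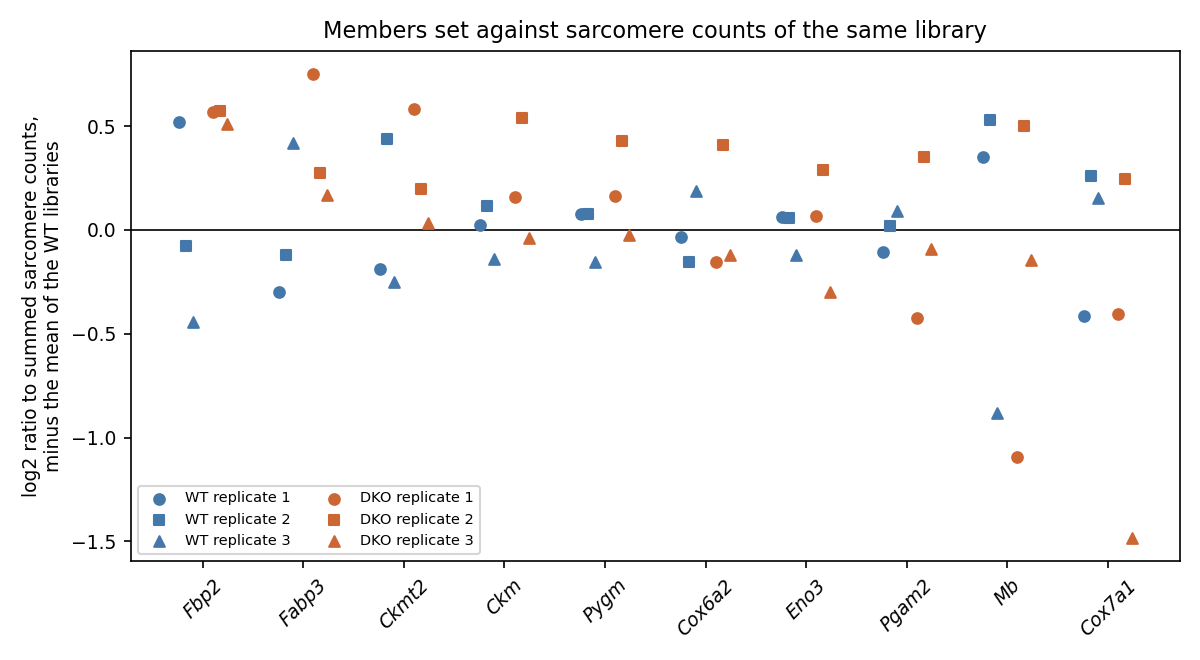
Log2 ratio of each gene's count to the summed counts of the 26 sarcomere genes in the same library, minus the mean of the 3 WT libraries (y axis), for the 10 genes (x axis), with WT in blue, DKO in orange and a marker shape for each replicate number. The groups overlap for all 10 genes, and *Mb* and *Cox7a1* spread the most.

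The genes whose course over the 6 libraries was nearest to the mean course of the 10 were sought among all genes tested, by the root mean square difference of centered log2 CPM. Among the nearest were the calcium release channel *Ryr1* (0.0552), 3425401B19Rik (0.0553), the fast-fiber calcium pump *Atp2a1* (0.0555) and the sarcoplasmic reticulum channel *Tmem38a* (0.0774). *Atp2a1* had 3069, 2912 and 2837 normalized counts in WT and 9777, 6069 and 4279 in DKO, which is the DKO order of *Ckm*. Among the 10 themselves, *Pygm* (0.0771), *Eno3* (0.0773) and *Ckm* (0.0793) were nearest to their common mean, and *Cox7a1* (0.498) and *Mb* (0.558), both of low count, were farthest.

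The rest of each pathway was read from fixed lists. In edgeR, 0 genes of the 5 pathway lists were called, while 2, 5, 4, 1 and 3 genes, in the order given here, were higher in DKO at an unadjusted p under 0.05 (4.96% of all genes) and 0 were lower (2.54%). Of the 22, 10, 18, 23 and 13 genes tested, 2, 3, 5, 1 and 2 had every DKO mouse above every WT mouse (7.24% of all genes). The respiratory chain list was thus near or below the share of all genes in both counts. The list of glycogen and glucose breakdown, with 2 of 22 in both, was not far above it. Of the regulators, 1 had every DKO mouse below every WT mouse, where 13.2% of all genes had groups apart in either direction. By DESeq2, *Adssl1*, *Cpt1b* and *Pdk4* passed the thresholds, where 0.466% of its genes were called as higher in DKO. A higher mean in DKO, counted for each list below, was held by 52.9% of all genes. Of 22 other genes of glycogen and glucose breakdown, 20 had the higher mean in DKO, with a median log2 fold change of 0.33, or 0.12 without DKO replicate 1. Muscle phosphofructokinase *Pfkm* had the smallest p-value, with 673, 585 and 612 normalized counts in WT and 1446, 803 and 829 in DKO (0.72, SE 0.222, adjusted p = 0.407 in edgeR), followed by *Gapdh* (0.42) and hexokinase *Hk2* (0.34). All 10 genes of adenine nucleotide and phosphate transfer had the higher mean in DKO, with a median of 0.60, or 0.26 without DKO replicate 1. *Adssl1*, the muscle adenylosuccinate synthase, was at 1.24 (SE 0.310, adjusted p = 0.286 in edgeR), AMP deaminase *Ampd1* at 0.74 and adenylate kinase *Ak1* at 0.65.

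For fatty acid use, 10 of 18 genes had the higher mean in DKO, which is near the share of all genes (52.9%). The median was 0.03, or -0.07 without DKO replicate 1. Its genes with the smallest p-values were *Pdk4*, the kinase that holds back pyruvate oxidation (1.18, SE 0.268), the muscle carnitine palmitoyltransferase *Cpt1b* (1.15, SE 0.288) and the fatty acid transporter *Slc27a1* (0.55), with adjusted p-values of 0.236, 0.281 and 0.426 in edgeR. *Pdk4* was at 264, 287 and 172 in WT and at 443, 427 and 766 in DKO, so DKO replicate 3, the lowest DKO library for the 10 genes, was here the highest. In the respiratory chain and citric acid cycle, 18 of 23 genes had the higher mean in DKO, but the median was 0.07. The muscle and brown fat oxidase subunit *Cox8b* stood out at 1.48 (SE 0.402, adjusted p = 0.335 in edgeR), with 34.7, 21.2 and 24.8 in WT and 106, 82.7 and 36.8 in DKO, while *Ogdh* (0.23), which most cells carry, was closer to 0. Of 13 tested regulators of oxidative and muscle genes, 11 had the higher mean in DKO, with a median of 0.30, or 0.19 without DKO replicate 1, and the smallest p-values belonged to the coactivator *Ppargc1b* (0.81, adjusted p = 0.213), *Six4* (1.26, adjusted p = 0.532) and *Mef2c* (0.46, adjusted p = 0.612, edgeR).

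Marker lists of fiber types and of other skin cells were read beside the 10 genes, as log2 fold changes and as summed TMM-scaled CPM. Of all genes tested, 52.9% had the higher mean in DKO. All 9 fast-fiber genes had the higher mean in DKO, with a median of 0.88 (0.39 without DKO replicate 1) and a summed level of 418 to 463 CPM in WT and 498 to 893 CPM in DKO. *Tnnt3* was at 1.07 and the abundant myosin *Myh1* at 0.19. Of 7 slow-fiber genes only 3 had enough counts, since *Myh7*, *Myl2*, *Myl3* and *Tnnc1* had no more than 15 counts in any library, and the sum was 13.2 to 14.9 CPM in WT and 19.7 to 30.4 CPM in DKO. The tested ones included *Myoz2* at 1.26 and *Tnni1* at -0.15. *Myoz2*, the most abundant of this list, had 103, 129 and 114 normalized counts in WT and 398, 195 and 239 in DKO. Of the 3 tested, *Myoz2* alone had every DKO mouse above every WT mouse (7.24% of all genes). Of 8 cardiac genes, *Myh6*, *Nppa*, *Nppb*, *Myl7* and *Tnni3* likewise had at most 15 counts per library, and *Actc1* (0.74) and *Myl4* (0.64), which immature skeletal muscle also uses, led the rest, whose median was 0.64 (0.20 without DKO replicate 1), in a sum of 27.4 to 44.7 CPM in WT and 36.9 to 74.4 CPM in DKO. Of 6 satellite cell and myoblast genes, the 5 tested had the higher mean in DKO, with a median of 0.86, *Chrna1* at 0.86 and *Myog* at 0.72, and a sum of 9.21 to 11.25 CPM in WT and 12.7 to 25.0 CPM in DKO.

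For brown fat, whose cells share *Fabp3*, *Cox7a1* and *Cox8b* with muscle, the defining gene *Ucp1* was counted only 1, 3 and 1 times in the WT libraries and 14, 4 and 0 times in the DKO libraries. Of the 5 brown adipocyte genes tested the median was -0.57, or -0.32 without DKO replicate 1, with *Elovl3*, which sebaceous glands also use, at -1.06 and *Zic1* at 0.05, and the sum was 78.7 to 91.5 CPM in WT and 50.4 to 72.0 CPM in DKO. Of 8 white adipocyte genes, 6 had the higher mean in DKO (median 0.27, sum 1081 to 1644 CPM in WT and 1023 to 2445 CPM in DKO), with *Car3*, which muscle also carries, at 0.41 and *Fabp4* as above. DKO replicate 1 held the highest value of the 6 libraries in 6 of these 8 genes, and the median without it was -0.27. The 7 smooth muscle genes had a median of 0.12 (*Smtn* 0.53, *Mylk* 0.14) and summed levels of 434 to 492 CPM in WT and 463 to 682 CPM in DKO. The 8 keratinocyte genes had a median of 0.06, or 0.18 without DKO replicate 1. Their sum was 6283 to 6750 CPM in WT and 7862 to 10244 CPM in DKO. The most abundant were *Krt1* (0.79) and *Krt10* (0.48). The others were *Krt14* at 0.39, *Krt5* at 0.11, *Trp63* and *Dsg3* at 0.01, *Ivl* at -0.09 and *Krt15* at -0.60. For 7 fibroblast genes the median was 0.31 (*Col1a1* 0.40, *Col3a1* 0.31), with 14341 to 17570 CPM in WT and 16377 to 24483 CPM in DKO. The part of muscle content, adipose tissue or the other cell types in the difference of the 10 genes was not tested beyond the ratios given above. By edgeR, 0 genes of these marker lists were called. At an unadjusted p under 0.05 in edgeR, 7 of 9 fast-fiber, 1 of 3 slow-fiber, 2 of 3 cardiac and 3 of 5 myoblast genes tested were higher in DKO. So were 1 of 5 brown adipocyte, 2 of 8 white adipocyte, 1 of 7 smooth muscle, 2 of 8 keratinocyte and 1 of 7 fibroblast genes. Of all genes, 4.96% were higher in this sense. Lower were 2 brown adipocyte genes and 1 keratinocyte gene, *Krt15* (2.54% of all genes). DESeq2 called 3 fast-fiber genes, *Myoz2*, 2 white adipocyte genes and, as lower, *Elovl3*. Of all its genes, it called 0.466% as higher and 0.732% in either direction.

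Annotated exons of 5 of the 10 genes overlap genes on the other strand: *Fabp3* with Gm10570 and *Zcchc17*, *Ckm* with A930016O22Rik, *Cox6a2* with *Itgad*, *Ckmt2* with 1700119I11Rik, and *Mb* with *Apol6* and Gm49540. As the strand setting of the counting is not given in the sources used here, reads of these neighbors cannot be told apart from those of the 5 genes. *Pygm*, *Eno3*, *Pgam2*, *Fbp2* and *Cox7a1* have no such overlap.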

How the data were processed

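RNA-Seq of total RNA from P4 back skin (3 WT and 3 DKO mice) was used. The authors depleted rRNA, trimmed paired-end reads (Trimmomatic 0.36), aligned them to GRCm38 (STAR 2.5.2b) and assigned them to genes (featureCounts, Subread 1.5.2), and the deposited values are whole-number counts per gene without normalization. Symbols were found for 48970 of 49315 gene IDs (99.3%). The fit used edgeR 4.0.16 under R 4.3.3 (filterByExpr, TMM, quasi-likelihood F test, Benjamini-Hochberg adjustment over 20168 genes). Each SE was derived from the F statistic and the log2 fold change. DESeq2 1.42.0 served as an alternative. Ratios within a library used a pseudocount of 0.5 and an exact two-sided permutation test (scipy 1.17.1). Both tools were first tested on simulated data. Depth is given in the report.

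The 10 genes and all lists were chosen with earlier results of these data known, so they are no independent support for a direction. Named beside them are all counterparts, the 3 genes with the smallest p-values of each pathway list, the 2 most abundant of each marker list and the 5 nearest courses, of which some items are not reported here. Marker genes with too few counts to test, the other keratinocyte markers, *Cox8b* as a brown fat gene and genes with overlapping exons were named in addition. Alternatives were DESeq2, other size factors, total counts, library sizes without sarcomere genes and the 10 genes, other count filters, no fold threshold, the title number as a block and each mouse left out. The values within title number 47347 and the overlap of groups without DKO replicate 1 were added after seeing the data.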

Additional observations from a re-analysis of the deposited data

How the results depend on the processing

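With edgeR, 0 of the 10 genes were called under RLE size factors, total counts, library sizes without the sarcomere genes, at least 10 counts in every library, no fold threshold, each mouse left out in turn and title number 47347 alone. The calls depended on the tool and the filter. DESeq2 called 6 of the 10, edgeR with no filter on low counts called 7, and all genes called numbered 151 and 210 instead of 14; the cause was not tested. In the pathway lists, DESeq2 called 1 gene of adenine nucleotide transfer and 2 of fatty acid use, and edgeR with no filter called 1, 2 and, in the respiratory chain list, 1. With each mouse left out, where 0.152 to 0.706% of its genes were called as higher in DKO, DESeq2 called from 0 (without DKO replicate 1) to 8 (without DKO replicate 3) of the 10, namely 4 without DKO replicate 2, 3 without WT replicate 1 and 2 without either of the other WT mice. All genes called in edgeR numbered 36 without DKO replicate 1 and 33 without DKO replicate 2, and 2 to 4 without each of the others. They numbered 22 with total counts and 21 with library sizes without the sarcomere genes.

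With the title number as a replicate block, edgeR called 0 of the 10 and 35 genes in all, and DESeq2 called 5 of the 10 (0.501% of its genes). Deviations from the group means correlated at 0.23 between the libraries that share 40972, at -0.02 to 0.17 within 47347 and at -0.15 to -0.10 across numbers, over genes. The deviations of the 3 mice of a group sum to 0 for each gene, so these correlations depend on one another. The labels do not say that the number pairs mice. No log2 fold change of the 10 genes changed direction under any alternative. Uncalled values near 0 did under some, namely those of *Eno1*, *Pgam1*, *Ckb*, *Fabp4*, *Cox6a1* and *Cox7a2*, and the sarcomere ratios of *Eno3*, *Pgam2*, *Mb* and *Cox6a2*. The ratio of *Mb* to *Cygb* went to -0.27 without WT replicate 3, and that of *Cox7a1* to *Cox7a2* to -0.09 without DKO replicate 1. For *Mb* and *Cox7a1*, with 13 to 47 counts per library, the intervals are too wide to tell no difference from one of 2-fold.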
